A study of Homo sapiens with 11 samples.

Results

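Histone genes that carried a deposited region of a myc, FLAG or IgG profile in HEK293T cells were examined. The members are H2AC25, H2BC26, H3-3B, H2BC4 and H2AC6, which are 5 of 19974 protein-coding genes on chromosomes 1 to 22 and X. They were chosen by the data themselves: a deposited region had to have its summit within 1000 bp of either end of the RefSeq span of the gene. The histone gene H2AZ2 also met this limit but is not among the members, and is described apart. Position, fold, −log10 q and rank of these regions are therefore given as a description with no test. The 5 genes share 5 distinct regions out of 5435 in all lists, because H2AC25 and H2BC26 share both of theirs and H2BC4 and H2AC6 share their single one.

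The regions come from CUT&RUN, in which an antibody inside permeabilised cells brings a nuclease to its target and the DNA it cuts free is sequenced. All 11 libraries were made from HEK293T, an established line of human embryonic kidney origin that expresses SV40 large T antigen. Libraries labelled edit_myc_FLAG, myc_FLAG and endog_myc number 3 each and gave 1 list per label, and mouse IgG (ms_IgG) and rabbit IgG (rbt_IgG) have 1 library and 1 list each. The labels' protocols name a mouse antibody to FLAG and a rabbit antibody to myc. The labels do not say how the FLAG tag was introduced, what "edit" stands for or whether the cells are 1 clone.

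MYC pairs with MAX and is best known for binding the E-box, a short palindromic DNA element at promoters of growth genes. Replication-dependent histone genes supply core histones during S phase, lack introns in their classical transcripts, and often sit as an H2A gene and an H2B gene transcribed away from each other from 1 shared stretch of DNA. H2AC25 with H2BC26 and H2BC4 with H2AC6 are such pairs. H3-3B instead encodes the variant H3.3, which is made throughout the cell cycle and is deposited independently of DNA replication.

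The DNA at these promoters is shown first, because all 4 target summits at the members fall inside it. The sequences are RefSeq promoter windows on GRCh38.p14, from 250 bases before the start site to 50 after it, written 5′ to 3′ in the direction of the named gene. All 5 members matched an entry. Capitals mark every CCAAT on either strand, so ATTGG is in capitals too. The H2BC26 window lies at chr1:228457853-228458152 on the plus strand and spans the whole 229 bp between the start sites of H2AC25 and H2BC26. The H3-3B window lies at chr17:75779730-75780029 on the minus strand. The H2AC6 window lies at chr6:26123922-26124221 on the plus strand and spans the 245 bp between H2BC4 and H2AC6.
H2BC26 window: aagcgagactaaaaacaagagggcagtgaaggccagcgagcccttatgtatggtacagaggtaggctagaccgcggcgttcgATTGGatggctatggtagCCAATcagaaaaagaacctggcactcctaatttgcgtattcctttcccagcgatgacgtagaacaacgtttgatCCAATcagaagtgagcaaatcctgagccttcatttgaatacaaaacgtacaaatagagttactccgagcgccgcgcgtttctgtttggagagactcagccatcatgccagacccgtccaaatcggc
H3-3B window: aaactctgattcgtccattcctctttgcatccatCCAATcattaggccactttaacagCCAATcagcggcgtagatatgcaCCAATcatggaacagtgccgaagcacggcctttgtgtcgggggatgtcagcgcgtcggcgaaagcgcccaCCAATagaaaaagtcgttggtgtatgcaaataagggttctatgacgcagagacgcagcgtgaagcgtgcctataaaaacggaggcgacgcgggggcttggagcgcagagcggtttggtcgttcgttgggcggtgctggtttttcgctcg
H2AC6 window: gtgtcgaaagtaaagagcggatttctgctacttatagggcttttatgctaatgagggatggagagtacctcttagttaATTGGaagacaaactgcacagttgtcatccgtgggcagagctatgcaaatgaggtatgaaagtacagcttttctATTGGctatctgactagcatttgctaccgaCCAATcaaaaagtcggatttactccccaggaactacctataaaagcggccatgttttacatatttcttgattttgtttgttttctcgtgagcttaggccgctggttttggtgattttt

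H3-3B had a region in endog_myc and another in edit_myc_FLAG. The endog_myc region ran from 75779680 to 75780078 on chromosome 17, with a fold of 10.2 and a −log10 q of 17.3. The edit_myc_FLAG region ran from 75779788 to 75779981, with a fold of 5.71 and a −log10 q of 4.84. No region of myc_FLAG, ms_IgG or rbt_IgG lay at the gene, and the nearest myc_FLAG summit on the chromosome was 2510264 bp from its start site. The gene spans 75776434 to 75779779 on the minus strand, so both summits lay upstream of transcription, 217 bp before the start site in endog_myc and 103 bp in edit_myc_FLAG.

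Within its own list the endog_myc region of H3-3B ranked 136 of 1359 by fold, in the top 10.01%. Among the 287 endog_myc regions at gene ends it ranked 5. The edit_myc_FLAG region ranked 879 of 2172, close to that list's median fold of 5.36. The endog_myc region was 399 bp wide and contained the whole 194 bp of the edit_myc_FLAG region, which covered 48.6% of it. The summits were 114 bp apart. No other annotated gene lay within 1000 bp of either summit.

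The H2AC25 and H2BC26 pair had a region in endog_myc and another in myc_FLAG, but these did not overlap. H2AC25 (228457364 to 228457873, minus strand) codes for a histone H2A and H2BC26 (228458103 to 228458558, plus strand) for a histone H2B on chromosome 1. The endog_myc region ran from 228457719 to 228458048, with a fold of 6.68 and a −log10 q of 8.12. The myc_FLAG region ran from 228458098 to 228458277, with a fold of 3.87 and a −log10 q of 1.52. They were separated by 49 bp, with summits 152 bp apart.

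The endog_myc summit lay between the genes, 80 bp upstream of the H2AC25 start site and 150 bp upstream of that of H2BC26. The myc_FLAG summit lay 2 bp past the H2BC26 start site, at the edge of a region that covers the beginning of that gene. The endog_myc region ranked 414 of 1359 by fold (30.5% of the list) against a list median of 5.49. The myc_FLAG region ranked 1123 of 1290 (87.1%), below the list median of 5.51, and its −log10 q was near the lowest in that list, 1.35. At 180 bp it was also narrow, with only 0.853% of myc_FLAG regions narrower. Both lists therefore hold the gene pair, but they share no region there.

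Although edit_myc_FLAG is the longest list, its nearest summit was 98766 bp from the H2AC25 start site. The nearest IgG summits were 100274 bp away for mouse and 100154 bp for rabbit. Peak callers report only what passes their threshold, so a missing region is no measured absence of signal.

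**Figure D1:**
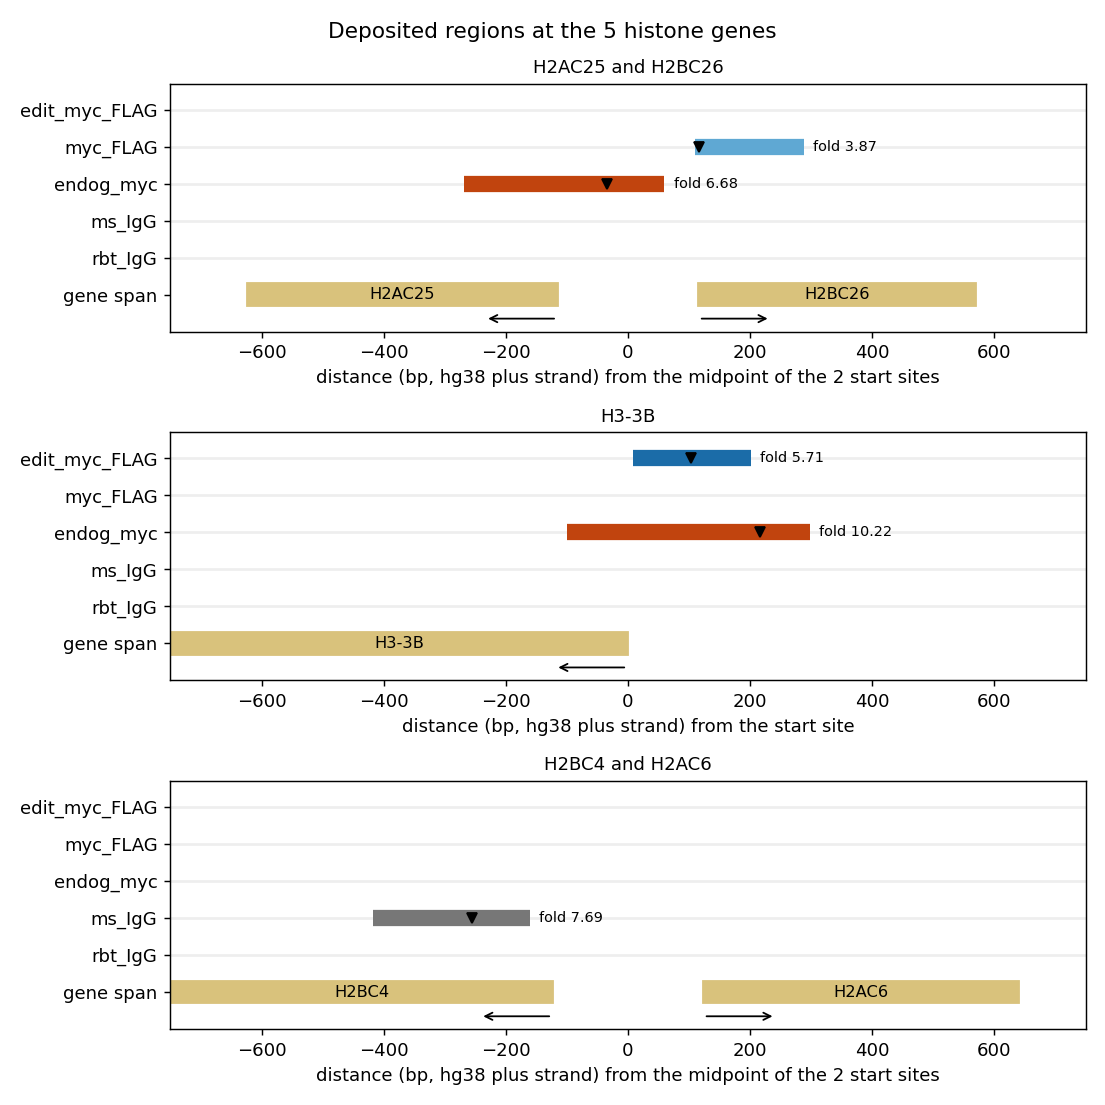
Deposited regions (bars) and their summits (triangles) at the 3 loci, by list, against distance in bp along the hg38 plus strand; gene spans are cut at the edge of the plot and arrows give the direction of transcription. The 2 regions of the H2AC25 and H2BC26 pair do not overlap, the edit_myc_FLAG region of H3-3B lies inside the endog_myc one, and the H2BC4 and H2AC6 pair has a ms_IgG region only.

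The H2BC4 and H2AC6 pair had a region in the mouse IgG list and in no other. IgG stands for an antibody with no chosen target in the cell, so this list shows background. The region ran from 26123632 to 26123889 on chromosome 6, with a fold of 7.69 and a −log10 q of 7.78. It ranked 80 of 305 by fold (26.2%) and 190 of 305 by −log10 q, and it was 258 bp wide. H2BC4, an H2B gene, spans 26113170 to 26123926 on the minus strand, and H2AC6, an H2A gene, spans 26124172 to 26124690 on the plus strand.

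The ms_IgG summit lay inside the H2BC4 span, 132 bp past its start site and 378 bp upstream of that of H2AC6. Unlike the 4 target regions it did not have its summit in a promoter window, and only 13 of its bases fell in that of H2BC4. Replication-dependent histone genes have near-identical copies, and the labels do not say how reads with several possible origins were treated. The assignment to H2BC4 rather than a relative is therefore uncertain. The same limit applies to the myc_FLAG region, which reaches into H2BC26, and to the endog_myc region, which reaches into H2AC25. The nearest target summits to the H2BC4 start site were 1348786 bp away in myc_FLAG, 1348795 bp in edit_myc_FLAG and 5034370 bp in endog_myc.

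**Figure D2:**
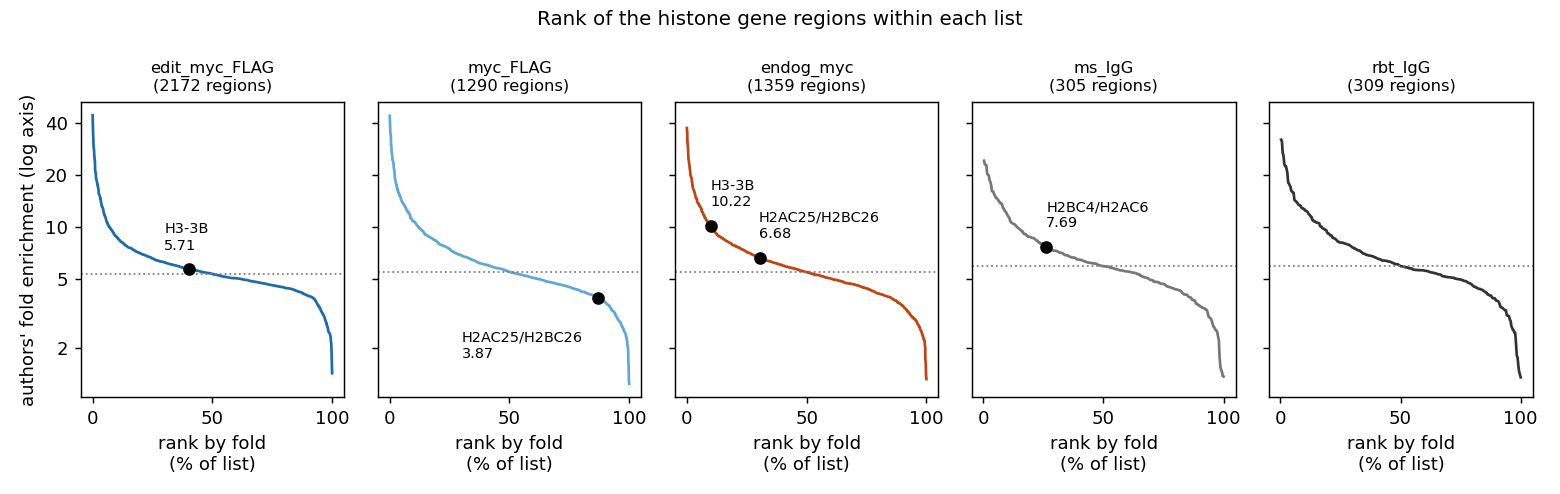
The authors' fold (log axis) of every region against its rank in percent of its list, with histone gene regions as points and the list median as a dotted line. H3-3B lies in the top 10.01% of endog_myc, and the H2AC25 and H2BC26 region lies at 87.1% of myc_FLAG, under the median.

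By list, 1 of the 5 members had an edit_myc_FLAG region, 2 a myc_FLAG region, 3 an endog_myc region, 2 a ms_IgG region and 0 a rbt_IgG region. Over all protein-coding genes the percentage with a region at an end was 4.27 in edit_myc_FLAG, 1.65 in myc_FLAG, 1.8 in endog_myc, 0.02 in ms_IgG and 0.0851 in rbt_IgG. As the members were picked for having a region, nothing is read from that contrast. The mouse IgG list had only 4 such genes, 2 of which are H2BC4 and H2AC6. The member farthest from its summit was H2AC6 at 378 bp, and the histone gene next outside the limit was MACROH2A2, a macroH2A gene, with an edit_myc_FLAG summit 3018 bp from its end (fold 4.48).

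Most histone genes had no region, as was the case for protein-coding genes in general. Of 95 histone genes examined, 2 had an edit_myc_FLAG region (2.11%, 95% Wilson interval 0.579 to 7.35, against 4.27% of all genes). In myc_FLAG there were also 2 (the same share and interval, against 1.65% of all), and in endog_myc there were 4 (4.21%, 1.65 to 10.3, against 1.8% of all). In each of these 3 target lists the share of all genes lay inside the interval. In ms_IgG the 2 of 95 (0.579 to 7.35) were H2BC4 and H2AC6, against 0.02% of all genes. The interval covers counting error only and takes genes as independent, though paired members share 1 region. As the members are among the genes counted, it is no test. The replication-dependent genes gave 0 of 69 in edit_myc_FLAG and 2 of 69 in each of myc_FLAG, endog_myc and ms_IgG. In edit_myc_FLAG and endog_myc alike, 2 of the 26 replication-independent genes had a region, H3-3B and H2AZ2, and 0 did in myc_FLAG.

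H2AZ2, which encodes an H2A.Z variant of histone H2A, is no member but had regions in the same lists as H3-3B. Its fold was 5.98 in edit_myc_FLAG and 6.41 in endog_myc, and the summits lay 215 and 207 bp upstream of a start site. The divergent transcript H2AZ2-DT lay within 1000 bp of both.

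The large histone cluster on chromosome 6, from 25726063 to 27893891, holds 55 of the replication-dependent genes. It had 0 target summits in 2.17 Mb, and its only summit in any list was the ms_IgG one at H2BC4. Chromosome 6 as a whole had 85 edit_myc_FLAG, 41 myc_FLAG and 35 endog_myc regions, or 0.499, 0.241 and 0.206 per Mb. Each IgG list had 8 there, or 0.047 per Mb. At such rates few summits would fall in 2.17 Mb, so nothing is read from the 0. Head-to-head H2A and H2B genes formed 11 pairs in the promoter table, with 193 to 247 bp between start sites. Of the 11, 2 had a region, H2AC25 with H2BC26 in myc_FLAG and endog_myc and H2BC4 with H2AC6 in ms_IgG alone. Their gaps were 229 and 245 bp against a median of 235 bp. Of all protein-coding genes, 1.65% had a myc_FLAG, 1.8% an endog_myc and 0.02% a ms_IgG region. Both pairs are members picked for having a region, so nothing is read from the count.

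Genes that control histone supply were read in the same way. The chaperone ASF1B, which hands H3 and H4 to assembly factors, had a region in each of the target lists, at a fold of 7.07 in myc_FLAG, 6.65 in edit_myc_FLAG and 5.23 in endog_myc. NAP1L4, an H2A and H2B chaperone, had 7.25 in edit_myc_FLAG and 7.01 in myc_FLAG. CHAF1A, the large subunit of chromatin assembly factor 1, was in myc_FLAG (4.40, with a −log10 q of only 2.01). DAXX, an H3.3 chaperone, was within reach of an endog_myc summit (4.57, with a −log10 q of 2.66) that also lay near ZBTB22. That summit was outside the DAXX span, 767 bp below its lower-coordinate end.

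NPAT, the activator of replication-dependent histone transcription, had an endog_myc region (4.72, with a −log10 q of 2.31) shared with ATM, its head-to-head neighbour. CDK2, the S phase kinase that phosphorylates NPAT, had one (7.22) that also lay near RAB5B. Its summit was outside the CDK2 span, 974 bp past the higher-coordinate end. Over 23 chaperone genes the counts were 2, 3 and 2 in the order edit_myc_FLAG, myc_FLAG and endog_myc. Over 22 genes for histone transcription and mRNA processing they were 0, 0 and 2. For these 45 genes together the shares were 4.44, 6.67 and 8.89%, against 4.27, 1.65 and 1.8% of all protein-coding genes, and each rests on 4 genes or fewer. CHAF1A in myc_FLAG and ASF1B, DAXX and NPAT in endog_myc had folds below their list medians of 5.51 and 5.49. The other regions of the 45 genes had folds above their list medians. The endog_myc share includes DAXX and CDK2, whose regions were not placed at a promoter, and NPAT, whose region is shared. With a summit limit of 500 bp its count was 2, ASF1B and NPAT. Neither IgG list had any of the 45, and nothing is read from that, since only 4 and 17 of 19974 genes had a ms_IgG or rbt_IgG region.

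**Figure D3:**
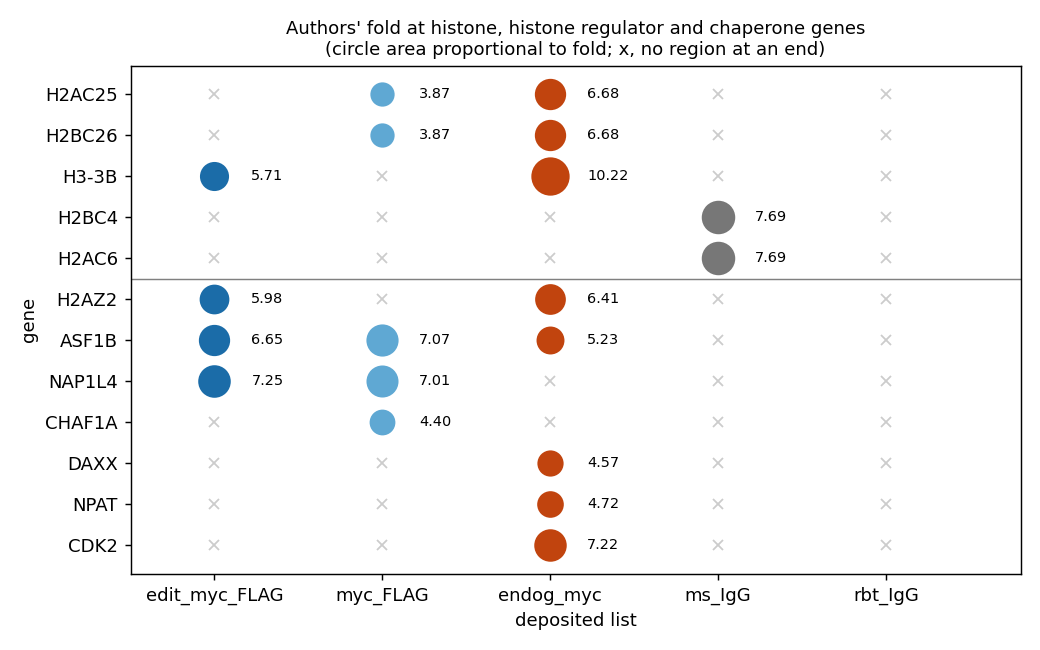
The authors' fold in each list for the 5 members (above the line) and for the other histone, regulator and chaperone genes with a region; circle area is proportional to fold and a cross means no region at a gene end. No gene below the line has an IgG region, and ASF1B alone is in all 3 target lists.

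The promoter windows were searched on both strands for the canonical E-box CACGTG, the looser E-box CANNTG that includes it, and CCAAT, which the factor NF-Y binds. The other elements were the core promoter element TATAAA, the octamer ATGCAAAT, the Sp1-type element GGGCGG and the cyclic AMP response element TGACGTCA. CCAAT was found in all 5 member windows, 4 times for H3-3B and 3 times for each of the other members. Of 22132 protein-coding promoter windows from 15812 genes, 34.6% held a CCAAT and 3.61% held 3 or more. Among 68 windows of replication-dependent histone genes 59 held it, so it is shared with histone genes that had no region.

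CACGTG was in none of the 5 windows, in 0 of the 68 histone windows and in 8.34% of all windows. The looser CANNTG was in 4 of the 5, all but H3-3B, and in 65.1% of all. A TATAAA and an octamer were each present in H3-3B, H2BC4 and H2AC6 and in neither H2AC25 nor H2BC26. Over all windows 9.46% held the first and 1.65% the second, but among the 68 histone windows the shares were 66.2% and 39.7%. GGGCGG was in H3-3B alone of the members, against 56.3% of all windows and 25% of the histone windows. TGACGTCA was in none of the members, in 2.26% of all windows and in 14.7% of the histone windows. CANNTG was in 69.1% of the histone windows. The windows of a divergent pair overlap, so paired genes share most of these matches. The TATAAA in the H2BC4 window, at −220 and on the opposite strand, is the same site as that at −31 of H2AC6.

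The summits are shown by 41 bases around each, in the direction of H2BC26 or H3-3B, with the summit base in capitals. They lie on chromosome 1 at chr1:228457933-228457973 and chr1:228458085-228458125 (plus strand) and on chromosome 17 at chr17:75779976-75780016 and chr17:75779862-75779902 (minus strand).
H2BC26, endog_myc: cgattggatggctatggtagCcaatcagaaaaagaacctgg
H2BC26, myc_FLAG: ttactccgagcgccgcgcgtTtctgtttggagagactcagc
H3-3B, endog_myc: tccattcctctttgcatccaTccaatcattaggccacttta
H3-3B, edit_myc_FLAG: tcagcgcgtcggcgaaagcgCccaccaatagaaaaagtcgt

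The centre of a CCAAT lay 2 bp from the endog_myc summit at H2AC25 and H2BC26. It lay 3 bp from the endog_myc summit and 6 bp from the edit_myc_FLAG summit at H3-3B, which fall beside different copies of the element. The myc_FLAG summit at H2BC26 was 76 bp from the nearest one. In the H2AC6 and H2BC4 windows the CCAAT copies were 208 bp or more from the ms_IgG summit. A match describes letters and is no evidence of which protein was there.

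Base composition differed among the members. H3-3B had 54.0% GC and 27 CpG in its window, H2AC25 and H2BC26 had 47.3% and 49.0% with 18 CpG each, and H2BC4 and H2AC6 had 42.3% and 41.0% with 7 and 8 CpG. The median over all windows was 62.3% GC and 21 CpG, so every member was below it in GC. Only H3-3B was above it in CpG.

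Genes in the same lists with the closest within-list ranks were found for each locus, by the root mean square difference in rank percentile. For H2AC25 and H2BC26, in myc_FLAG and endog_myc, the closest of 24 genes were ERCC2 (a difference of 8.29 percentage points), RPRD2 (16.3) and BNIP3L (20.4). For H3-3B, in edit_myc_FLAG and endog_myc, they were PWWP2A (11.1), GLYR1 and ROGDI (11.3 each, from shared regions) among 82. All 3 had a lower endog_myc fold than the 10.2 of H3-3B, at 7.17, 7.10 and 7.10. For H2BC4 and H2AC6, in ms_IgG alone, the only other genes were CNIH4 (2.95, fold 8.19) and FGGY (4.59, fold 7.26). The likeness rests on 2 lists for the first loci and on 1 list for the last.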

How the data were processed

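The authors deposited 5 narrowPeak lists on hg38, 3 of them made from 3 libraries each and 2 from 1 IgG library each. The submitters' processing notes name HOMER 4.10, MACS3 3.0.0b1, SAMtools 1.15 and Bowtie2 2.4.5. Their options, the control of the calls and how replicates were merged are not stated there or in the labels. Each deposited row gives a fold enrichment, a −log10 q and a score for a single peak, all the authors'; the score is the deposited −log10 q times 10, to within 1, and was not used further. Read depth is unknown, fold and −log10 q were ranked only within a list, and nothing measures the spread between replicates.

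With Python 3.11.15 and pandas 2.3.3, summits were counted from 1 and assigned to a protein-coding gene within 1000 bp of either end of its RefSeq span, a step tested on simulated data. Gene symbols and promoter windows came from RefSeq tables on GRCh38.p14, whose primary chromosomes have hg38 coordinates, and all but 2 of 142 listed symbols matched. The genes named are the members, genes sharing their regions, listed genes with a region and the closest 3 genes per locus, and MACROH2A2 was named after its value was seen. Members and lists were chosen with earlier results of these data known. No test was made.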

Additional observations from a re-analysis of the deposited data

How the results depend on the processing

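No paired analysis was possible because each target list merges its 3 libraries, and for the same reason no replicate could be left out. Of 81 recounts of members, histone genes and the 45 regulator and chaperone genes, 74 stayed within 1.5 times the value given, but 20 of these were counts of 0, which no stricter setting can lower. Ranks depended more on the setting, and 9 of 15 alternative ranks fell outside a 95% interval set around the rank given. That interval serves only as a limit for this count, since a rank in a fixed list has no sampling error. Ranks by −log10 q or among fewer regions are also other quantities than the rank by fold. Requiring a −log10 q of at least 5 left 0 members and 0 histone genes in edit_myc_FLAG and in myc_FLAG. In edit_myc_FLAG H3-3B (4.84) and H2AZ2 (4.95) narrowly missed it, and the list median, 4.95, was itself below it. In myc_FLAG H2AC25 with H2BC26 (1.52) lay far below it, against a list median of 8.18. The same limit left 1 regulator or chaperone gene of 4, CDK2, in endog_myc. With a summit limit of 500 bp that endog_myc count was 2, without DAXX and CDK2. Taking start sites alone, an alternative chosen after seeing the data, also gave 2 there. DAXX and CDK2 had no start site in the windows used and could not be counted. Their summits lay outside the gene spans, 767 and 974 bp from an end, and were not shown to lie near a start. The 1 region shared between target lists, at H3-3B, became 0 when the overlap had to cover at least 50% of both regions and 0 when summits had to lie within 100 bp. Ranked by −log10 q, every member region stood lower in its list than by fold: H3-3B at 24.5% of endog_myc and 51.3% of edit_myc_FLAG, H2AC25 with H2BC26 at 48.3% of endog_myc and 97.8% of myc_FLAG, and H2BC4 with H2AC6 at 62.3% of ms_IgG. Among regions at gene ends alone, the ms_IgG region stood at 66.7% (2 of 3) and the myc_FLAG region at 98.8%, while in endog_myc H2AC25 with H2BC26 stood at 26.1% and H3-3B at 1.74%.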

Other observations

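The CCAAT seen at every member was common at promoters with a target summit, a count that includes the members' own. These values were chosen after the members' sequences were seen, and no test was made. A summit fell in a protein-coding promoter window for 386 edit_myc_FLAG, 159 myc_FLAG and 183 endog_myc regions. Of those windows 72.3%, 86.8% and 90.7% held a CCAAT, against 34.6% of all windows. CACGTG was in 10.1%, 11.9% and 7.65%, against 8.34% of all. A CCAAT was present for 279, 138 and 166 regions. Its centre lay within 10 bp of the summit for 61, 30 and 38 of these, with median distances of 33, 30 and 27 bp. The looser CANNTG was present for 199, 85 and 88 regions, with 16, 10 and 11 within 10 bp and medians of 65.5, 65.5 and 52.5 bp. Only 1 ms_IgG and 4 rbt_IgG summits fell in a window, and all 5 of these windows held a CCAAT. The median distance was 28 bp in ms_IgG and 5 bp in rbt_IgG, where 3 of the 4 lay within 10 bp. Closeness to a CCAAT was thus not particular to the target lists, though the IgG values rest on few regions. Windows with a target summit also held GGGCGG more often, at 81.1% to 83.2% against 56.3% of all, and base composition was not matched. H2AZ2 had 4 CCAAT and 0 CACGTG in its window, with its edit_myc_FLAG summit 15 bp and its endog_myc summit 23 bp from the nearest CCAAT.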
